A study of Mus musculus with 8 samples.

Results

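Tbpl1, Gtf2a1l and Taf7l are mouse genes for germ-cell forms of basal transcription factors of RNA polymerase II. They were taken by symbol from the deposited table, and all 3 were present among its 16349 genes, with a value in each of the 8 libraries. The libraries hold poly A RNA of round and elongating spermatids from C57BL/6 testis, and in each stage 2 libraries are labelled WT and 2 are labelled cKO, a conditional knockout of Carm1. The enzyme that Carm1 encodes methylates arginines and assists transcription factors. The design of the series is to find genes that respond to its loss at these stages. Per the labels' protocols, the cells of a sample were pooled from 8 testes, sorted by size and density in an elutriation centrifuge, and given no treatment. Not given in the sources used here are the Cre driver, the deleted exons and the age of the mice.

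Transcription by RNA polymerase II starts when general factors assemble on a promoter. TBP, the TATA-binding protein, is the core of the TFIID complex, whose other subunits are the TAF proteins, and TFIIA stabilises TBP on DNA. Germ cells make variants of these parts. TBPL1, also known as TRF2 or TLF, resembles the DNA-binding core of TBP and binds TFIIA, but does not recognise the TATA box as TBP does, and male mice without it are sterile with spermatids that fail to mature. GTF2A1L, also known as ALF, is the germ-cell counterpart of GTF2A1, the large subunit of TFIIA. TAF7L, encoded on the X chromosome, is the germ-cell counterpart of the TFIID subunit TAF7.

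The start regions of the 3 genes differ in composition, and they are shown because all 3 transcripts fell together from the round to the elongating stage. Each sequence is the 250 bases before the RefSeq gene start (GRCm38.p6), read 5′ to 3′ on the strand of the gene, with motif matches on either strand in capitals.
Tbpl1, chr10:22731448-22731697, minus strand: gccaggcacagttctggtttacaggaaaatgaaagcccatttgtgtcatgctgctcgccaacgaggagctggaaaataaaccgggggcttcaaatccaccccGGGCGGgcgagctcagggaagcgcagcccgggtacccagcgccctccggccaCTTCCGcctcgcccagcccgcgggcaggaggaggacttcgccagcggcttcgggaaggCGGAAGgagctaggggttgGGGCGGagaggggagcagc
Gtf2a1l, chr17:88668410-88668659, plus strand: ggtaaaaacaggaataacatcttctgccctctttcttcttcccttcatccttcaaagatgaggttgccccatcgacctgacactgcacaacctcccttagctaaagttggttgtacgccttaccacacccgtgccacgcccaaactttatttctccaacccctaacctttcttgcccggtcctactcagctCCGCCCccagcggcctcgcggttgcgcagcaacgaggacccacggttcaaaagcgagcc
Taf7l, chrX:134476491-134476740, minus strand: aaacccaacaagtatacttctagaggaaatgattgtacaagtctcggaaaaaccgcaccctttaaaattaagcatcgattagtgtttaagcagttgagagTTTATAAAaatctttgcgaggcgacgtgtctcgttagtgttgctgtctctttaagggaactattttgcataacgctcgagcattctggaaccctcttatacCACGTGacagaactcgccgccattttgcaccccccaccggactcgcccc
The Tbpl1 window lies in the first intron of a longer GENCODE M21 transcript and just before a shorter one. It had 65.6% G or C and 19 CpG dinucleotides, the Gtf2a1l window had 54.4% and 13, and the Taf7l window had 44.8% and 14, beside a median of 52.4% and 6 over 32851 mouse promoter windows of that length. The motifs searched, on both strands, were the TATA box with the letters TATAAA, the CAAT box with the letters CCAAT, the GC box with the letters GGGCGG, the core of ETS factor sites with the letters CGGAAG, the E-box with the letters CACGTG, and the cyclic AMP response element, to which CREM binds, as its short form with the letters TGACG and its full form with the letters TGACGTCA. In the Tbpl1 window the GC box matched 148 to 143 and 19 to 14 bases before the start. The ETS core matched there 96 to 91 bases before the start, on the opposite strand and so printed as its complement, and 38 to 33 bases before it. The Gtf2a1l window held a single match, the GC box on the opposite strand 59 to 54 bases before the start. In the Taf7l window the TATA box matched on both strands in overlapping positions, 150 to 145 and 148 to 143 bases before the start, and the E-box matched 49 to 44 bases before it. Of all windows, 12.4% held the TATA box, 32.7% the GC box, 13.6% the ETS core and 6.0% the E-box. None of the 3 windows held the CAAT box or the short or full response element, which stood in 33.8%, 17.8% and 1.5% of all windows. A match of letters is a description and does not show that a factor binds there.

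Carm1, on chromosome 9, measured 1649 and 1686 normalised read counts in the round WT libraries and 1174 and 1343 in those labelled KO. At the elongating stage WT gave 4308 and 4534 and the libraries labelled KO gave 8157 and 7993. It was lower at the round stage and higher at the elongating stage under the same label, and the second direction goes against that label. KO-labelled is therefore the name used for them, and each direction given for them in elongating spermatids rests on labels that the targeted gene did not bear out. Exons of Carm1 share 21.1% of their bases with Yipf2 on the opposite strand. Whether the deleted exons are missing cannot be read from totals per gene.

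The libraries held 17190962 to 23526694 recovered reads. The 50 most abundant genes, by their mean over all 8 libraries, took 7.06% to 7.22% of the reads in round and 31.9% to 34.9% in elongating libraries. Values summed higher in elongating libraries, so this choice favours genes abundant there. The round share is not that of the 50 genes most abundant in round cells. With each library scaled to its total, the median log2 difference of all genes moved from 0.01 to -1.42 between the stages in WT and from -0.07 to -0.61 for the KO-labelled elongating libraries. Markers of spermatids were present in all groups. Transcripts of Tnp1, for a transition protein that replaces histones, averaged 16791 in round and 188376 in elongating WT libraries. Acrv1, for an acrosomal protein, averaged 3269 in round and 1242 in elongating WT libraries. These stage markers also moved with the KO label at the elongating stage, where 5 of the 11 spermatid markers rose and 4 fell. Of all genes tested, 27.3% were called higher and 27.7% lower there. In these libraries Tnp1 averaged 330786 and was higher. Acrv1 averaged 671, and the acrosomal genes Spaca1 and Acr 272 and 696, beside 732 and 1080 in elongating WT, so these 3 were lower. Izumo1 and Spag6 of the same list averaged 697 and 1608, close to the 723 and 1489 of elongating WT. Markers of other cells moved with the groups. All 15 measured Sertoli cell markers and all 10 macrophage markers were called higher in elongating than in round spermatids, in WT and in KO-labelled cells. Between the stages, 41.7% of all genes tested were called higher in WT and 42.6% in KO-labelled cells. The share of reads in the Sertoli list was 0.00372% to 0.00378% in WT and 0.00204% to 0.00208% in KO-labelled round spermatids, and 0.0275% to 0.0276% in WT and 0.0126% to 0.0130% in KO-labelled elongating spermatids. The macrophage list took 0.00116% to 0.00143%, 0.00160% to 0.00166%, 0.0308% to 0.0309% and 0.00901% to 0.00906% in the same order, and all 10 of its genes fell in the KO-labelled elongating libraries. Among these markers only Fshr, the Sertoli receptor for follicle-stimulating hormone, had no reads in 1 of the groups, round KO-labelled. Of the 11 genes of the peritubular and vascular list, 4 were called higher and 2 lower in the KO-labelled elongating libraries. Of all genes tested, 27.3% and 27.7% were. The list summed there to 4589 to 4596 normalised read counts beside 2715 to 2773 in WT. Myh11, of smooth muscle, averaged 1036 beside 372, and Vwf, of endothelium, 1679 beside 716. By their means, other endothelial genes of the list went both ways, Pecam1 with 13.4 beside 50.4, Cdh5 69.8 beside 126 and Kdr 59.3 beside 44.6. The share of the 18 spermatocyte markers was 0.256% to 0.257% in WT and 0.253% in KO-labelled round spermatids. At the elongating stage it was 0.0807% to 0.0834% for WT and 0.0787% to 0.0799% under the KO label. Among these 18 genes, 6 were called higher and 5 lower with the label in round cells. At the later stage 6 rose and 8 fell with it. Syce2 weighed most in the later sums, with means of 12297 for WT and 21059 under the label, beside 974 in round WT. Close shares therefore do not show a constant spermatocyte content. The part of cells other than spermatids, and of stage, in the results below was not tested.

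Transcripts of all 3 germ-cell paralogs were more abundant in round than in elongating spermatids. In WT cells, the level in elongating spermatids was 5.49-fold lower for Tbpl1, 1.89-fold lower for Gtf2a1l and 6.89-fold lower for Taf7l. In the elongating KO-labelled libraries all 3 were lower again than in elongating WT, Tbpl1 by 44.7%, Gtf2a1l by 18.2% and Taf7l by 17.2%. In round spermatids the KO-labelled means differed from WT by 7.58% for Tbpl1, 8.27% for Gtf2a1l and -9.60% for Taf7l. In these bulk samples, fewer cells of a type and less RNA per cell cannot be told apart.

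Tbpl1 lies on the minus strand of chromosome 10, from 22703879 to 22731938 (GRCm38), in 7 exons in its longest coding transcript. Round WT libraries gave 3395 and 3483 and round KO-labelled libraries 3718 and 3681, and at the elongating stage WT gave 645 and 607 and KO-labelled 359 and 334. The highest values were those of round KO-labelled and the lowest those of elongating KO-labelled cells. The group means were 3439 ± 62.3, 3699 ± 26.3, 626 ± 26.5 and 346 ± 17.8 (SD, n = 2 each). By its mean Tbpl1 ranked 750th of all genes of the table in round WT and 4514th in elongating KO-labelled libraries. Its 3′ end overlaps Slc2a12, a sugar transporter gene on the opposite strand, over 407 bases or 12.4% of its exonic sequence, and the kit does not mark strand. Slc2a12 had 0 to 1 recovered reads in the round and 3 to 11 in the elongating libraries, beside 177 to 6533 for Tbpl1.

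Gtf2a1l lies on the plus strand of chromosome 17, from 88668660 to 88715152, in 9 exons, and was the most abundant of the 3 in every library, both in normalised read counts and per kilobase of transcript. Round WT libraries gave 4838 and 4826 and round KO-labelled libraries 5266 and 5198, and at the elongating stage WT gave 2589 and 2532 and KO-labelled 2108 and 2081. The libraries of a group lay close together. Means were 4832 ± 8.83, 5232 ± 48.6, 2560 ± 39.9 and 2095 ± 19.0 (SD, n = 2 each). With 1087 to 9225 recovered reads per library, the counting error of a single value was 1.04% to 3.03%.

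Taf7l lies on the minus strand of the X chromosome, from 134460118 to 134476490, in 13 exons, and was the least abundant of the 3. Round WT libraries gave 709 and 740 and round KO-labelled libraries 653 and 657, and at the elongating stage WT gave 112 and 98.1 and KO-labelled 89.2 and 84.8. Round and elongating libraries differed clearly, while WT and KO-labelled libraries of a stage were close. Means were 725 ± 21.3, 655 ± 2.76, 105 ± 9.97 and 87.0 ± 3.10 (SD, n = 2 each). The elongating KO-labelled values rest on 46 and 45 recovered reads, with a counting error of 14.7% and 14.9%, and the 95% counting intervals of the elongating WT and KO-labelled libraries overlap. On the median coding transcript length, the level per kilobase in round WT was 4088 ± 7.47 for Gtf2a1l, 1691 ± 30.6 for Tbpl1 and 469 ± 13.8 for Taf7l (SD, n = 2 each), and this order also held with either measure of total exon length.

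**Figure D1:**
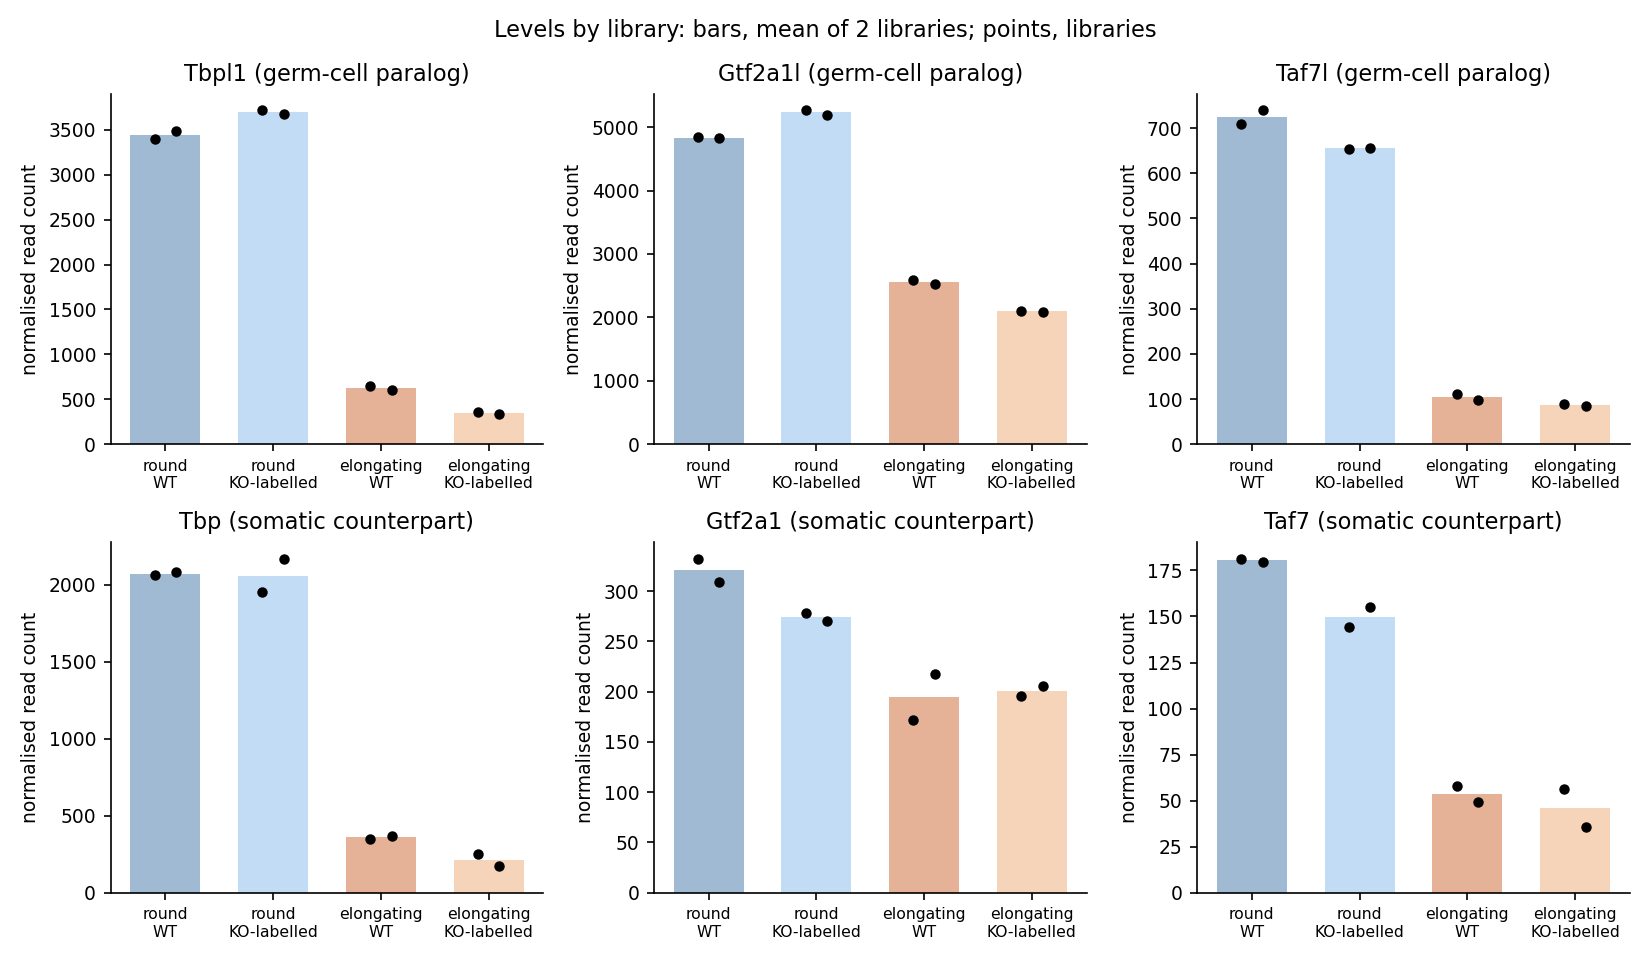
Normalised read counts (vertical axis, from 0) of the 3 germ-cell paralogs in the upper row and their somatic counterparts in the lower row, by group; bars are means of 2 libraries and points are libraries. Tbpl1 goes from 3395 and 3483 in round WT to 359 and 334 in elongating KO-labelled libraries. The points of the 3 paralogs do not overlap between groups. The share of all genes with separate points was not counted, so this is a description only and does not set the 3 genes apart.

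Differences between groups were tested with limma on log2(value + 1) over 15685 genes, with Benjamini-Hochberg adjustment, and a gene was called at an adjusted p under 0.05. Between the stages in WT cells, the log2 difference of Tbpl1 was -2.46 (SE 0.05, adjusted p = 1.1e-15), that of Gtf2a1l -0.92 (SE 0.04, adjusted p = 1.9e-12) and that of Taf7l -2.78 (SE 0.09, adjusted p = 2.8e-13). Of all genes tested, 40.2% were called lower and 41.7% higher in elongating WT spermatids, 81.9% in all, so a call alone sets no gene apart here. The size placed Tbpl1 and Taf7l near the end of the distribution, since 1.24% and 0.504% of tested genes had a lower log2 difference, and Gtf2a1l well inside it, with 27.5% lower. In KO-labelled cells the falls were 10.7-fold for Tbpl1 (log2 difference -3.41, SE 0.05), 2.50-fold for Gtf2a1l (-1.32, SE 0.04) and 7.53-fold for Taf7l (-2.90, SE 0.09), where 41.8% of genes were called lower, 42.6% higher and 84.3% in all. With total-count scaling the 3 WT differences were -3.92, -2.38 and -4.24, and relative to the median of all genes they were -2.50, -0.96 and -2.81, beside -2.47, -0.93 and -2.79 with the deposited scaling.

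In round spermatids, Gtf2a1l rose slightly in the KO-labelled libraries, by a log2 difference of 0.11 (SE 0.04, adjusted p = 0.022). For Tbpl1 the log2 difference was 0.11 (95% interval -0.01 to 0.22, adjusted p = 0.14) and for Taf7l it was -0.15 (-0.34 to 0.05, adjusted p = 0.26), and neither passed the threshold. Of all genes tested, 19.4% were called higher and 12.6% lower, 32.0% in all, with a median of 0.03. The rise of Gtf2a1l was 0.03 with total-count scaling (adjusted p = 0.62), and its call was lost without either library of either round group, at adjusted p = 0.054 to 0.12 and log2 differences of 0.11 to 0.12. With edgeR on the recovered reads Tbpl1 and Taf7l were called as well, at adjusted p = 0.012 and 0.020.

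In elongating spermatids, all 3 paralogs fell in the KO-labelled libraries. The log2 difference was -0.85 for Tbpl1 (SE 0.05, adjusted p = 2.5e-09), -0.29 for Gtf2a1l (SE 0.04, adjusted p = 6.0e-06) and -0.27 for Taf7l (SE 0.09, adjusted p = 0.024). Of all genes tested, 27.7% were called lower and 27.3% higher, 55.0% in all. The fall of Tbpl1 was larger than that of most genes, with 10.8% of tested genes lower still, while 36.5% and 38.0% had a lower value than Gtf2a1l and Taf7l. Relative to the median of all genes the 3 differences were -0.78, -0.22 and -0.19 with the deposited scaling and -0.80, -0.24 and -0.21 with total-count scaling. The call of Taf7l was lost with edgeR (adjusted p = 0.16), with DESeq2 (adjusted p = 0.30), and in limma without replicate 1 of elongating WT (log2 difference -0.17, adjusted p = 0.16) or replicate 2 of elongating KO-labelled cells (-0.23, adjusted p = 0.061).

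The KO-labelled effect differed between the stages for Tbpl1 and Gtf2a1l. Subtracting the round from the elongating effect gave -0.96 for Tbpl1 (SE 0.07, adjusted p = 1.1e-07) and -0.40 for Gtf2a1l (SE 0.05, adjusted p = 1.3e-05) in limma's interaction term. For Taf7l it gave -0.12 (95% interval -0.40 to 0.16, adjusted p = 0.51), whose lower end is close to the value of Gtf2a1l. Of all genes tested, 17.5% were called lower and 19.3% higher in this term, 36.9% in all. With total-count scaling the Taf7l term was called at -0.58 (adjusted p = 0.0016), while the median of all genes was -0.49.

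**Figure D2:**
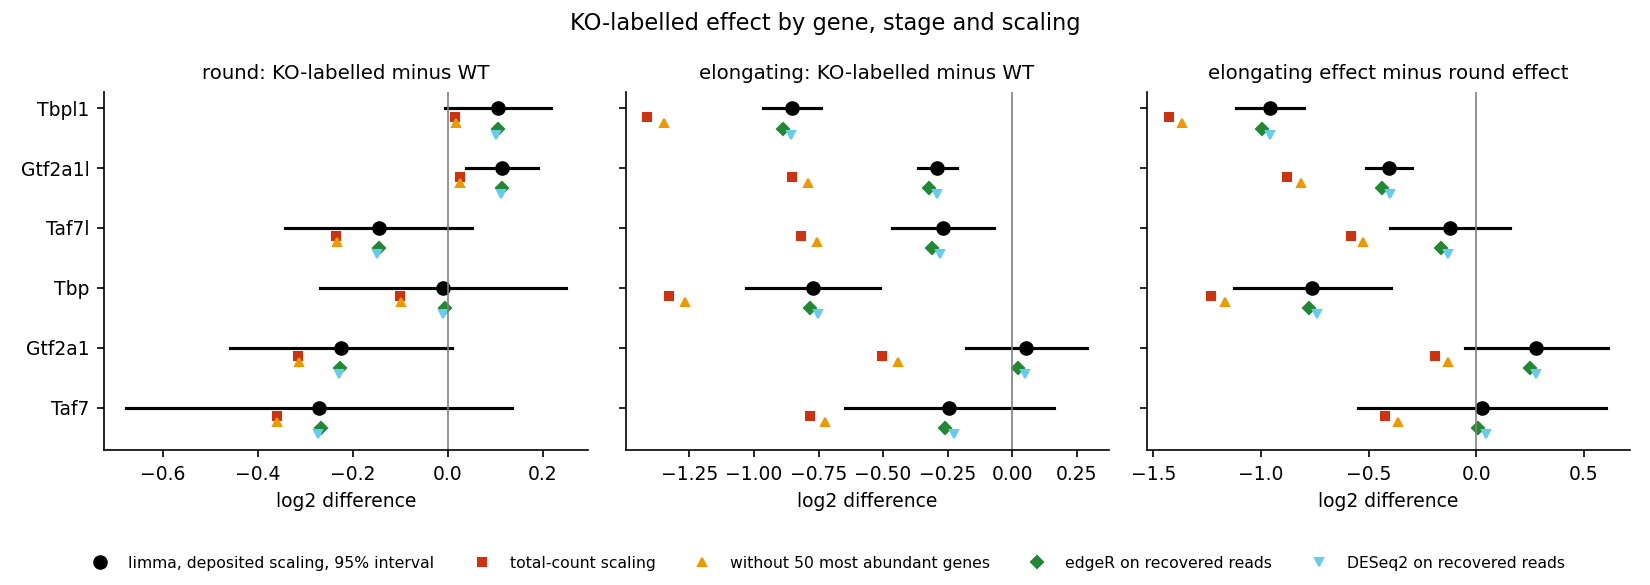
Log2 difference between KO-labelled and WT libraries (horizontal axis) for the 3 paralogs and their somatic counterparts, in round spermatids, in elongating spermatids and as the difference of the 2 effects; circles with bars are limma estimates with 95% intervals, other symbols are alternative scalings and tools. Tbpl1 and Tbp stand lowest in the elongating panel at -0.85 and -0.77, and the scalings to totals shift all genes of that panel to the left.

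The somatic counterparts were measured in the same libraries. Tbp, on chromosome 17, measured 2062 and 2080 in the round WT and 1949 and 2168 in the round KO-labelled libraries, and at the elongating stage 348 and 371 in WT and 254 and 173 under the KO label. It fell with Tbpl1 at both steps, by a log2 difference of -2.52 (SE 0.12, adjusted p = 2.7e-11) between the stages in WT and of -0.77 (SE 0.12, adjusted p = 7.1e-05) in the elongating KO-labelled libraries, or -0.50 without replicate 2 of the latter. In round cells its KO-labelled and WT libraries overlapped (log2 difference -0.01, adjusted p = 0.96). Exons of Tbp share 19.0% of their bases with Pdcd2 on the opposite strand, so reads of these genes can be mixed.

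Gtf2a1, on chromosome 12, measured 332 and 309 in the round WT and 279 and 270 in the round KO-labelled libraries, and at the elongating stage 171 and 218 in WT and 196 and 205 under the KO label. It fell between the stages in WT by a log2 difference of -0.73 (SE 0.11, adjusted p = 2.0e-05). Its elongating WT and KO-labelled libraries overlapped, with a log2 difference of 0.05 (95% interval -0.18 to 0.29, adjusted p = 0.70) that became -0.51 with total-count scaling, close to the median of all genes there. Taf7, on chromosome 18, measured 181 and 180 in the round WT and 144 and 155 in the round KO-labelled libraries, and at the elongating stage 58.0 and 49.0 in WT and 56.2 and 35.8 under the KO label. It fell between the stages in WT by -1.74 (SE 0.19, adjusted p = 6.0e-07), and its KO-labelled differences of -0.27 in round and -0.24 in elongating cells did not pass the threshold (adjusted p = 0.31 and 0.29).

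Ratios of paralog to counterpart within a library do not depend on how the library is scaled. They ranged from 1.41 to 1.92 for Tbpl1 to Tbp, and round and elongating libraries overlapped. Across both genotypes the log2 ratio differed between the stages by -0.03 (exact permutation test, 4 against 4 libraries, two-sided p = 0.74). The ratio of Gtf2a1l to Gtf2a1 was 14.6 and 15.6 in the round WT and 18.9 and 19.3 in the round KO-labelled libraries, and at the elongating stage 15.1 and 11.6 in WT and 10.8 and 10.1 under the KO label. The highest values were those of round KO-labelled cells and the lowest those of elongating KO-labelled cells, while the WT groups overlapped. Its log2 ratio was lower by -0.53 in elongating cells (exact permutation p = 0.057, adjusted p = 0.26 over 9 ratio tests).

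The ratio of Taf7l to Taf7 was 3.91 and 4.11 in the round WT and 4.52 and 4.24 in the round KO-labelled libraries, and at the elongating stage 1.93 and 2.0 in WT and 1.59 and 2.37 under the KO label. All 4 round libraries exceeded all 4 elongating libraries, and the ratio was 2.15-fold lower in elongating cells. The exact permutation p was 0.029, the smallest that 4 against 4 libraries can give, and 0.26 after adjustment over the 9 tests, so it did not pass the threshold. Between genotypes within a stage, 2 against 2 libraries cannot give a p below 0.33. In round cells all 3 ratios were higher in the KO-labelled libraries without overlap, 1.08-fold for Tbpl1 to Tbp, 1.27-fold for Gtf2a1l to Gtf2a1 and 1.09-fold for Taf7l to Taf7. Each had the exact permutation p of 0.33 that any such separation gives, so the lack of overlap is a description only. At the elongating stage the ratio of Gtf2a1l to Gtf2a1 was 1.27-fold lower in KO-labelled than in WT libraries, without overlap, and the other two overlapped.

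**Figure D3:**
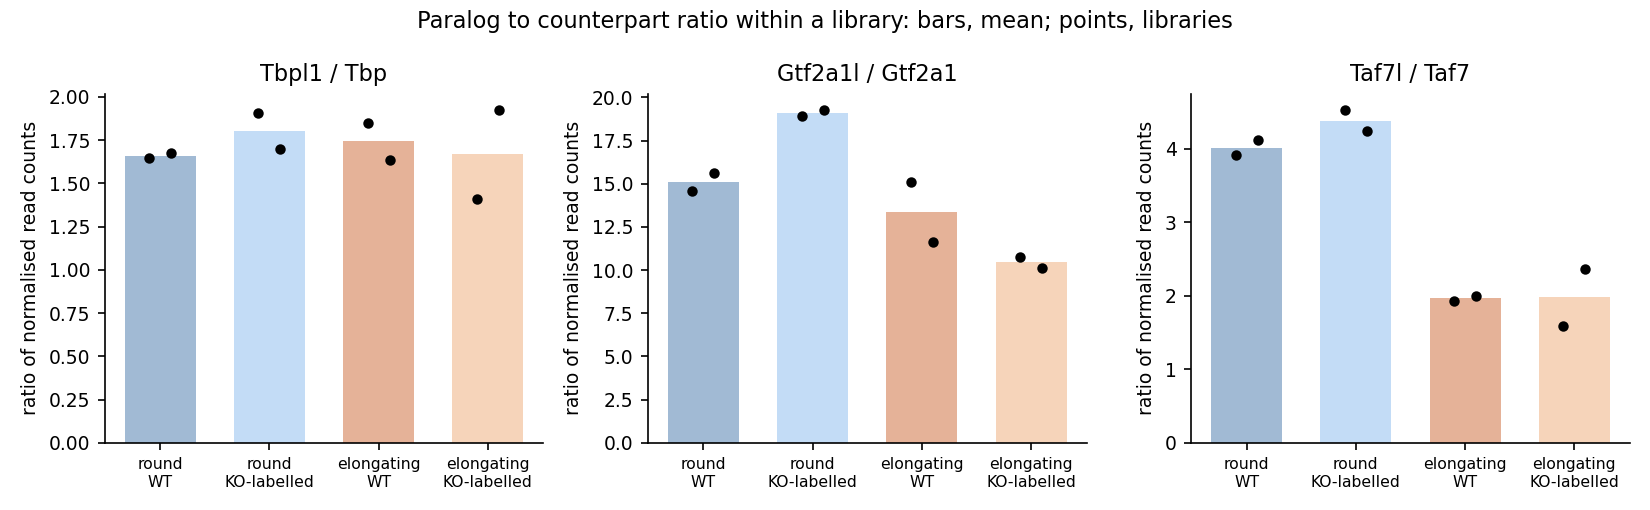
Ratio of normalised read counts of each germ-cell paralog to its somatic counterpart (vertical axes from 0) by group; bars are means of 2 libraries and points are libraries. Taf7l to Taf7 lies between 3.91 and 4.52 in round and between 1.59 and 2.37 in elongating libraries, while Tbpl1 to Tbp stays between 1.41 and 1.92.

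Per kilobase of the median coding transcript, Gtf2a1l exceeded Gtf2a1 53.1-fold in round WT cells, or 49.8-fold and 57.3-fold on the 2 measures of total exon length. Taf7l exceeded Taf7 8.58-fold, or 5.90-fold and 6.62-fold. For Tbpl1 and Tbp the ratio per kilobase was 0.79 on the median coding transcript and 6.89 on all exons, because the Tbp gene model includes long transcripts, so no order of these levels is given.

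Other genes that act on TFIIA were read beside the members. Gtf2a2, the small subunit that pairs with GTF2A1 or GTF2A1L, averaged 974 ± 39.2 in WT and 914 ± 71.3 in KO-labelled round spermatids, and 280 ± 38.5 in WT and 155 ± 16.6 in KO-labelled elongating spermatids (SD, n = 2 each). Like Tbpl1 it fell by a log2 difference of -0.85 in the elongating KO-labelled libraries (SE 0.10, adjusted p = 3.9e-06), and it did not change detectably in round cells (-0.09, 95% interval -0.31 to 0.12, adjusted p = 0.52). Tasp1, the protease that cleaves the large TFIIA subunits, went the other way. Round WT libraries gave 474 and 530 and round KO-labelled libraries 467 and 429, and at the elongating stage WT gave 3535 and 3576 and KO-labelled 5587 and 5350. Its rise was 7.08-fold between the stages in WT (log2 difference 2.82, SE 0.06, adjusted p = 8.3e-16), and it rose by a further log2 difference of 0.62 in the elongating KO-labelled libraries (SE 0.06, adjusted p = 3.6e-07). That second rise was 0.057 with total-count scaling and not called (adjusted p = 0.38). In round KO-labelled cells the log2 difference of Tasp1 was -0.16 (adjusted p = 0.046), and its call was lost without replicate 2 of round KO-labelled cells (-0.10), replicate 2 of round WT (-0.082) or either elongating WT library (-0.16, adjusted p = 0.073).

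Of the other paralogs of TBP and TAF genes listed, Taf4b, Taf9b and 4933416C03Rik were measured, and Tbpl2 and Taf1l are not analysed here. The last of the measured genes is the intronless relative of Taf7l that RefSeq also names Taf7l2. All 3 fell between the stages in WT, by log2 differences of -1.88, -1.71 and -1.98. Taf4b, a TFIID subunit needed for the upkeep of the germ line, averaged 298 in WT and 204 in KO-labelled round spermatids (log2 difference -0.55, SE 0.15, adjusted p = 0.0094), and its log2 difference in elongating KO-labelled cells was -0.37 (SE 0.15, adjusted p = 0.045). The round call was lost without replicate 1 of the round KO-labelled cells (-0.42, adjusted p = 0.13) or of round WT (-0.49, adjusted p = 0.10). The elongating call was lost in 6 of the 8 fits that leave out a library, those without any round library, replicate 1 of elongating WT (-0.18, adjusted p = 0.35) or replicate 2 of elongating KO-labelled cells (-0.33, adjusted p = 0.11), and the value was -0.55 without replicate 2 of elongating WT. 4933416C03Rik fell by 0.24 in elongating KO-labelled cells (SE 0.06, adjusted p = 0.0035), with -0.15 without their replicate 2, and had a log2 difference of 0.09 in round cells (adjusted p = 0.28). It shares 28.8% of its exonic bases with Ptprr on the opposite strand. Taf9b passed in neither KO-labelled comparison, at 0.22 in round (adjusted p = 0.16) and -0.06 in elongating cells (adjusted p = 0.70).

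The neighbour of Gtf2a1l was measured too. Ston1, which encodes the endocytic adaptor stonin 1, lies just upstream on the same strand of chromosome 17 and shares no exonic bases with Gtf2a1l in GENCODE M21. It averaged 777 ± 20.9 in WT and 352 ± 3.89 in KO-labelled round spermatids, and 2010 ± 82.1 in WT and 1579 ± 129 in KO-labelled elongating spermatids (SD, n = 2 each). In round KO-labelled cells Ston1 fell by a log2 difference of -1.14 (SE 0.06, adjusted p = 6.2e-09), where Gtf2a1l was at 0.11. Between the stages in WT it rose by 1.37 (SE 0.06) with the deposited scaling, a direction that became -0.10 with total-count scaling, while Gtf2a1l fell under both.

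Among the 15684 other genes tested, the 5 with the most similar profile over the 8 libraries were listed for each member, by the root mean square difference of log2(value + 1) after centring. For Tbpl1 they were Slco6c1 (0.056), Arc (0.067), Ccdc81 (0.069), Lyar (0.075) and Galnt3 (0.079), and Tbp came at rank 47 with 0.14. Slco6c1 measured 2380 and 2462 in round WT and, at the other end, 242 and 215 in elongating KO-labelled libraries. For Gtf2a1l they were Rab11a (0.036), Slc22a14 (0.039), Psmb7 (0.041), Cyth2 (0.043) and Zfp541 (0.052), while Gtf2a1 came at rank 2801 with 0.33. For Taf7l the nearest were Nmd3 (0.12), Nup37 (0.12), 3830417A13Rik (0.13), Gkap1 (0.13) and Atad5 (0.13), and Tbpl1 came at rank 97 with 0.23. These differences are descriptive, since the 8 values fall into 4 groups, and 4, 5 and 4 of the 5 genes were listed again under total-count scaling.

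The wider machinery of RNA polymerase II was lower in elongating WT spermatids for most of its listed genes. Of 14 TFIID subunits 11 fell and 3 rose, with a median log2 difference of -1.20, of 17 other general factors 12 fell and 2 rose (median -1.28), and of 13 RNA polymerase II subunits 7 fell and 2 rose (median -0.66), beside a median of 0.01 over all genes tested and 40.2% called lower. The largest falls among TFIID subunits were those of Tbp, of Taf5 (-2.43) and of Taf12 (-1.96). Among the other factors the largest falls were those of Mnat1 (-2.20), an assembly factor of the kinase module of TFIIH, of Ercc3 (-1.92), a TFIIH helicase, and of Gtf2b (-1.76), which encodes TFIIB. Polr2k (-1.79), Polr2a (-1.72), for the largest subunit, and Polr2b (-1.64) fell most among polymerase subunits. In elongating WT, Mnat1 rests on 14 and 22 recovered reads and Polr2k on 17 and 28. With single libraries left out Mnat1 spanned -2.59 to -1.81 and Polr2k -2.22 to -1.37, so their places in these orders are not firm. Tcea1, an elongation factor gene, rose by 3.18, and Polr2m rose by 1.53, or by 0.072 with total-count scaling, where it was not called (adjusted p = 0.45). The TFIID genes Taf10 (1.13), Taf6 (0.92) and Taf11 (0.50), the elongation factor gene Tcea2 (0.22) and Polr2l (0.99) also rose, but under total-count scaling each of these 5 was lower in elongating cells. Under that scaling 14 TFIID subunits, 16 other factors and 12 polymerase subunits were called lower. Tcea1 was the only gene of the 3 lists called higher. The scaling shifted all genes tested, to a median of -1.42. The share of all genes called lower under it is not given here, so these counts do not set the 3 lists apart. Taf10 and Taf6 share 45.9% and 26.5% of their exonic bases with genes on the opposite strand. Haploid structural genes such as those of protamines moved opposite to the paralogs, with 18 of 18 higher and a median of 3.75, but 3 of the 18 were called lower with total-count scaling.

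In the elongating KO-labelled libraries, 3 TFIID subunits fell and 4 rose (median -0.18), 10 of the other general factors fell and 3 rose (median -0.31), and 6 polymerase subunits fell and 2 rose (median -0.40), beside a median of -0.07 over all genes and 27.7% called lower. Tbp fell most among TFIID subunits, followed by Taf12 (-0.67) and Taf11 (-0.28). Ercc3 (-0.87), Gtf2e1 (-0.86), for a TFIIE subunit, and Gtf2h4 (-0.83), for a TFIIH subunit, had the most negative values called among the other factors, and Polr2g (-0.64), Polr2f (-0.63) and Polr2e (-0.45) those among the polymerase subunits. Gtf2h4, with 9 to 41 elongating reads, was not called without replicate 1 of elongating WT (-0.41) or replicate 2 of elongating KO-labelled cells (-0.51) and was at -1.26 without replicate 2 of elongating WT. Polr2g, with 17 to 54, was not called without replicate 1 of elongating KO-labelled cells (-0.31) or replicate 2 of elongating WT (-0.40) and was at -0.97 without replicate 2 of the KO-labelled cells. Taf9 (0.67), Tcea2 (0.60) and Polr2l (0.66) rose, but with total-count scaling their values were 0.10, 0.033 and 0.099 and none of these 3 was called (limma, adjusted p = 0.065, 0.38 and 0.55). Taf9 shares 73.8% of its exonic bases with Ak6 on the same strand. Taf10 (0.41), Taf13 (0.38), Gtf2f2 (0.37), Tcea1 (0.30) and Polr2m (0.23) rose as well, and under total-count scaling each of these 5 was lower in the KO-labelled libraries. The call of Taf13 was lost without replicate 1 of elongating WT (0.19) or replicate 2 of elongating KO-labelled cells (0.30), and that of Polr2m without any 1 of the 4 elongating libraries (0.21 to 0.24). With that scaling 11 TFIID subunits, 15 other factors and 12 polymerase subunits were called lower. It shifted all genes tested, to a median of -0.61. The share of all genes called lower with it is not given here, so these counts do not set the 3 lists apart. The haploid structural genes had 17 of 18 higher (median 0.66), and 10 higher and 5 lower with total-count scaling.

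In round spermatids 14 of the 44 genes in these 3 lists, or 31.8%, were called in the KO-labelled libraries, close to the 32.0% of all genes tested. Of the TFIID subunits 2 rose and 3 fell (median -0.02), of the other general factors 3 rose and 3 fell (median -0.22), and of the polymerase subunits 2 rose and 1 fell (median -0.07), where 19.4% of all genes were called higher and 12.6% lower. Taf9 (0.36) and Taf10 (0.31) rose and Taf1 (-0.42), for the largest TFIID subunit, Taf2 (-0.31) and Taf11 (-0.20) fell. Ercc2 (0.72), a TFIIH helicase gene whose exons overlap opposite-strand genes, Tcea2 (0.48) and Gtf2f2 (0.23) rose, while Gtf2e1 (-0.55), Tcea1 (-0.44) and Gtf2f1 (-0.30) fell. Of polymerase subunits Polr2f (0.42) and Polr2l (0.40) rose and Polr2b (-0.36) fell. With total-count scaling, where the median of all genes was -0.06, 4 polymerase subunits were called lower, and the share of all genes is not given here. The calls of Polr2f (0.34, adjusted p = 0.066), Polr2l (0.32, adjusted p = 0.11) and Gtf2f2 (0.14, adjusted p = 0.22) were lost. The calls of Taf1, Taf2, Taf11, Gtf2e1 and Polr2l were lost without any 1 of the 4 round libraries. Those of Polr2f (0.33 to 0.45) and Gtf2f2 (0.12 to 0.24) were lost without replicate 1 of round KO-labelled cells or either round WT library, that of Gtf2f2 also without either elongating WT library, and that of Polr2b without replicate 2 of round KO-labelled cells (-0.34) or replicate 1 of round WT (-0.32).

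**Figure D4:**
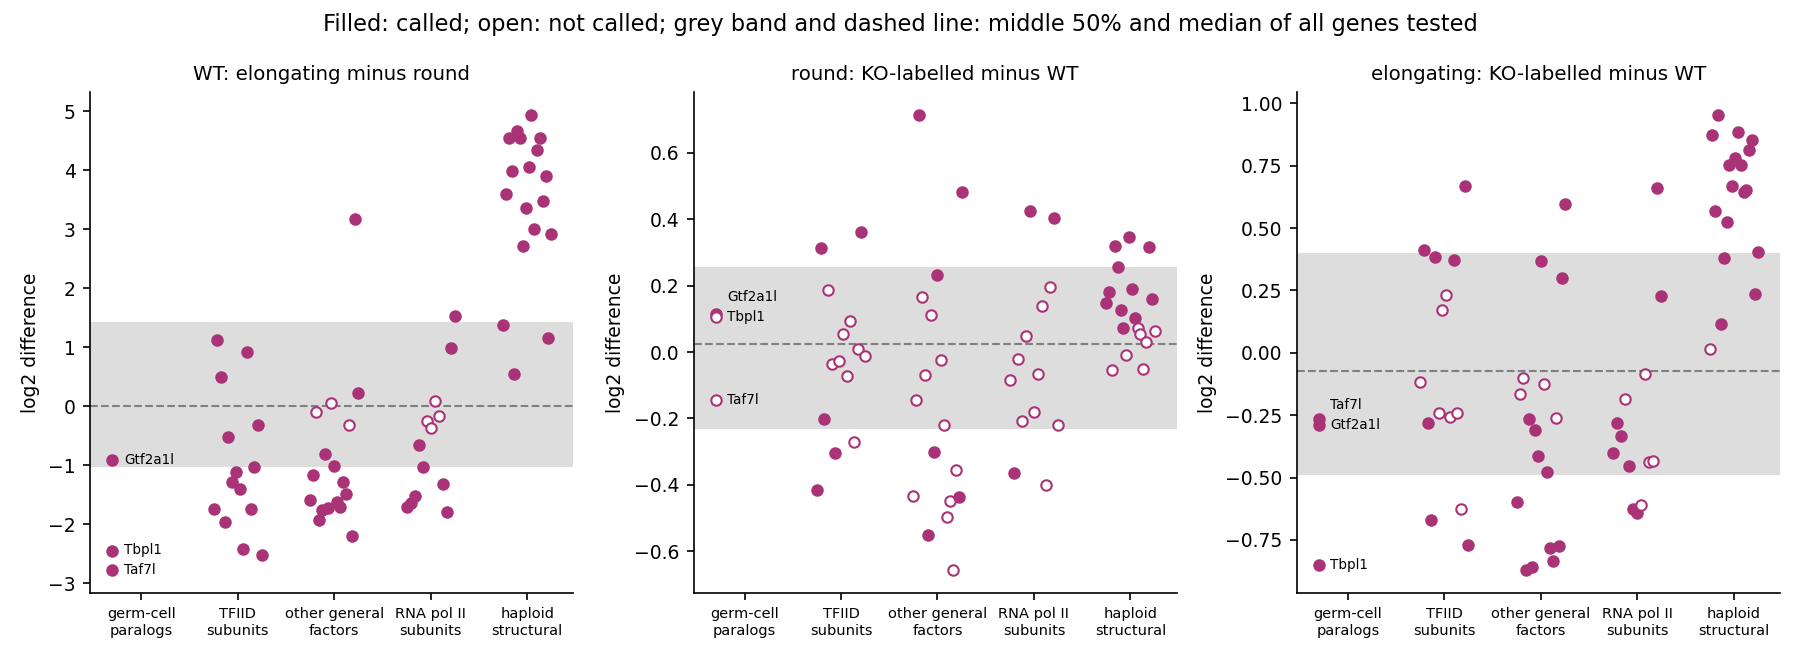
Log2 difference (vertical axis) of the 3 germ-cell paralogs and of the listed TFIID subunits, other general factors, RNA polymerase II subunits and haploid structural genes, between the stages in WT and between KO-labelled and WT libraries at either stage; filled points were called by limma, open points were not, and the grey band is the middle 50% of all genes tested. Taf7l at -2.78 and Tbpl1 at -2.46 stand among the lowest points of the stage panel, and Tbpl1 at -0.85 among the lowest of the elongating panel.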

How the data were processed

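Poly A RNA was read in 8 libraries that the labels put in 4 groups of 2. The labels do not say that these came from different animals, so the p-values reflect the spread between libraries, which may be technical. Recovered reads of the libraries in a group differed on average by somewhat more than sampling noise (chi-square per gene 1.37 to 2.31). A few very abundant genes can raise this mean, so it cannot show whether the libraries are technical copies. Each was counted as a sample as labelled. Among the tools in the submitters' processing notes are TopHat2 2.0.10, HTSeq 0.6.0 and DESeq 1.16.0, also CASAVA 1.8.2, and the builds named are mm10 and GRCm38. Their roles, the strand setting and the annotation used are not given in the sources. The values deposited are a normalised signal per gene, called normalised read count here. By their steps the authors divided whole reads by a size factor per library, since 100% of values were whole multiples at a tolerance of 1e-06.

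From these values, log2(value + 1) was fitted with limma 3.58.1 in R 4.3.3, using 4 group means and the trend option of its empirical Bayes step, for the 15685 genes that reached 10 in at least 2 libraries, which left 4 residual degrees of freedom. The test was checked on simulated data in which a small set of genes changed in the round KO-labelled libraries only. That check does not cover the broad changes between the stages or at the elongating stage. Log2 differences on this scale understate the change of low genes, and fold and percent differences are those of group means. Counting errors and intervals cover counting error only. Alternatives were other pseudocounts, no filter, other scalings, edgeR 4.0.16 and DESeq2 1.42.0 on the recovered reads, a replicate block, fits of the 4 libraries compared, and leaving out each library. Positions and exons came from GENCODE M21 and promoter windows from RefSeq. The genes named are the members, their somatic counterparts, Gtf2a2, Tasp1, other measured paralogs of TBP and TAF genes, and Carm1. Also named are up to 3 called genes per list with the largest rise and fall, the 5 nearest profiles, and neighbouring genes. Members and lists were chosen with earlier results of these data known. Protein sequences were not used here.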

Additional observations from a re-analysis of the deposited data

Results flagged for a closer look

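In limma's interaction term with Benjamini-Hochberg adjustment, the KO-labelled effect differed between the stages for 8 of the 13 genes named whatever their call. The share of all genes tested was 36.9%. Another 11 listed genes were named because they were called in this term. Among the 44 listed genes for TFIID subunits, other general factors and polymerase subunits, 12 were called in it, 4 higher and 8 lower. That is 27.3%, below the share of all genes tested. Values are the elongating minus the round log2 effect. Tbpl1 had -0.96 (adjusted p = 1.1e-07) and Gtf2a1l -0.40 (adjusted p = 1.3e-05), and both fell in elongating KO-labelled libraries, while their round estimates were 0.11. Among genes tied to them, Tbp had -0.76, Gtf2a2 -0.75, Tasp1 0.78 and 4933416C03Rik -0.34, and the neighbour Ston1 had 0.79. Carm1 itself had 1.28, since it was lower at the round and higher at the elongating stage. Of TFIID subunits, Taf12 had -0.86, Taf9 0.31 and Taf6 0.28. Of the other general factors, Ercc3 had -1.04, Ercc2 -0.82, Gtf2e2 -0.42 and Tcea1 0.73. Of polymerase subunits, Polr2f had -1.05, Polr2e -0.50, Polr2a -0.32 and Polr2m 0.45. The call of Polr2e was lost without replicate 1 of elongating WT or of round KO-labelled cells or without either round WT library (-0.50 to -0.41), and that of Polr2m without replicate 1 of round KO-labelled or of round WT cells (0.35 each), while Tbp was at -0.49 without replicate 2 of elongating KO-labelled cells. With total-count scaling the values of Taf6, Taf9 and Polr2m turned negative, at -0.20, -0.17 and -0.02.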

How the results depend on the processing

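Tbpl1 kept its direction and its side of the threshold in elongating KO-labelled cells, between the stages in WT and in KO-labelled cells, and in the interaction, under every alternative run, as did Gtf2a1l, and Taf7l did so between the stages. In round KO-labelled cells Gtf2a1l was 0.025 with total-count scaling and 0.026 without the 50 most abundant genes, and ranged from 0.11 to 0.12 with single libraries left out. Tbpl1 (0.11) and Taf7l (-0.15) were called there with edgeR, and at the same values in a fit of the 4 libraries compared. Taf7l in elongating KO-labelled cells was not called with edgeR (-0.31), DESeq2 (-0.28) or the fit of the 4 libraries (-0.27), and ranged from -0.36 to -0.17 with single libraries left out. Its interaction was called with total-count scaling (-0.58) and without the 50 most abundant genes (-0.52).

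With total-count scaling and without the 50 most abundant genes, in that order, these turned: in elongating KO-labelled cells Gtf2a1 (-0.51, -0.44), Taf10 (-0.15, -0.087), Taf13 (-0.18, -0.11), Gtf2f2 (-0.19, -0.13), Tcea1 (-0.26, -0.20) and Polr2m (-0.34, -0.27); between the stages in WT Taf6 (-0.55, -0.10), Taf11 (-0.97, -0.52), Tcea2 (-1.24, -0.80) and Polr2l (-0.46, -0.019), and with total counts only Carm1 (-0.061), Ston1 (-0.10) and Taf10 (-0.33); in the interaction Gtf2a1 (-0.19, -0.13), Taf7 (-0.42, -0.37), Taf4b (-0.27, -0.21), Taf6 (-0.20, -0.13), Taf9 (-0.17, -0.11), and with total counts only Polr2m (-0.025). These scalings shift all genes, and other causes were not tested.

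With single libraries left out, these spanned 0, as log2 differences: Tbp in round KO-labelled cells from -0.087 to 0.066; in elongating KO-labelled cells Taf7 from -0.56 to 0.075, Taf9b from -0.24 to 0.13 and Gtf2a1 from -0.12 to 0.23; in the interaction Taf7 from -0.29 to 0.35 and Taf4b from -0.00054 to 0.37. The log2 ratio of Tbpl1 to Tbp spanned -0.090 to 0.059 between the stages and -0.30 to 0.14 in elongating KO-labelled cells, where that of Taf7l to Taf7 spanned -0.31 to 0.27. None of these passed the threshold with all libraries.

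Differences between replicates 1 and 2 correlated at -0.01 to 0.03 between groups. Much of these differences is counting noise (chi-square per gene 1.37 to 2.31), so this cannot show whether the replicate numbers pair libraries. With the replicate number as a block, the round and elongating values of Gtf2a1l were 0.11 and -0.29, and no call of Tbpl1, Gtf2a1l or Taf7l changed. The calls of Tasp1 (-0.16) and Gtf2f2 (0.23) in round KO-labelled cells were lost at adjusted p = 0.057 and 0.058. Genes called in round cells went from 3041 higher and 1977 lower to 2998 and 1934, and in elongating cells from 4279 and 4348 to 4251 and 4332. Among the 3 paralogs depth limits Taf7l most, with 45 to 87 reads per elongating library, and Taf7 had 19 to 45.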
